A study of Oryza sativa with 26 samples.

Results

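The transcripts described here were high in rice anthers before meiosis and low in every stage after leptotene. They were chosen from measured levels. On log2(intensity + 1), a probe set was taken if the lower of its An1 and Mei1 stage means lay at least 1 above the highest of its M2, M3, P1, P2 and P3 means, and M1 was left free. The rule picked 272 of 57194 probe sets (0.476%), control probe sets having been left out. Of these, 206 read 1 gene, 2 read several and 64 have no gene named; the 206 belong to 198 genes, of which 56 have a symbol.

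Levels came from 26 Affymetrix Rice Genome Arrays of whole anthers of Oryza sativa, and neither a cultivar nor a genetic change is given for any stage. All plants grew in paddy fields at Mishima without a stated treatment and the arrays of a stage are called biological replicates. An1 (3 arrays) is the stage in which archesporial cells form under the epidermis, and Mei1 (3 arrays) covers the S and G2 phases just before meiosis. M1 (4 arrays) is leptotene, M2 (3 arrays) zygotene to pachytene, and M3 (4 arrays) diplotene to tetrad. P1, P2 and P3 (3 arrays each) carry uninucleate, bicellular and tricellular pollen, the last being mature. Each value is an intensity relative to the 75th percentile of its array, which was 1 on all 26 arrays, and precision depends on the 3 or 4 arrays per stage. The labels name no anther size or count of anthers pooled, and stages were assigned by the submitters.

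Before meiosis the germ line and the anther wall layers still divide. Cells that enter S phase load the MCM helicase at origins, copy DNA with the sliding clamp PCNA and the single-strand binding protein RPA, and pack the copies with newly made histones. In rice the germ cells also carry the Argonaute MEL1, which binds small RNAs made in the young anther, and the receptor kinase MSP1 limits how many cells become sporocytes.

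The label of a premeiotic group held for the level of the members, but "lost" went further than the data in M2 and came closer to them by P3. The member median, in log2(intensity + 1), was 3.08 in An1, 2.86 in Mei1, 2.32 in M1, 1.43 in M2, 1.31 in M3, 0.91 in P1, 0.72 in P2 and 0.59 in P3. In M2 the mean of 186 of the 272 was still at or above 1, and only 11 lay below the level used as the filter on low intensities. In P3 these counts were 58 and 34. The member median was there 0.59, 0.55 and 0.52 by array, against 0.48, 0.60 and 0.60 for all probe sets tested. In 268 of the 272, all 6 premeiotic arrays exceeded each of the 16 later arrays; the others were MET1b, LOC4335798, LOC4332215 and LOC4331710. The rule favours such a separation and its share over all probe sets is not given here, so nothing is read from that count. The differences in level follow from the rule and carry no test. Most members lay close to the limit: the margin ran from 1.00 to 3.29 with a median of 1.25, and 14 members had a margin of at least 2. Just inside the limit lay LOC4348736 (1.003), and just outside it LOC4336278 (0.998) and LOC4345122 (0.996). In all, 98 probe sets had margins from 0.9 to 1, against 73 from 1 to 1.1.

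**Figure D1:**
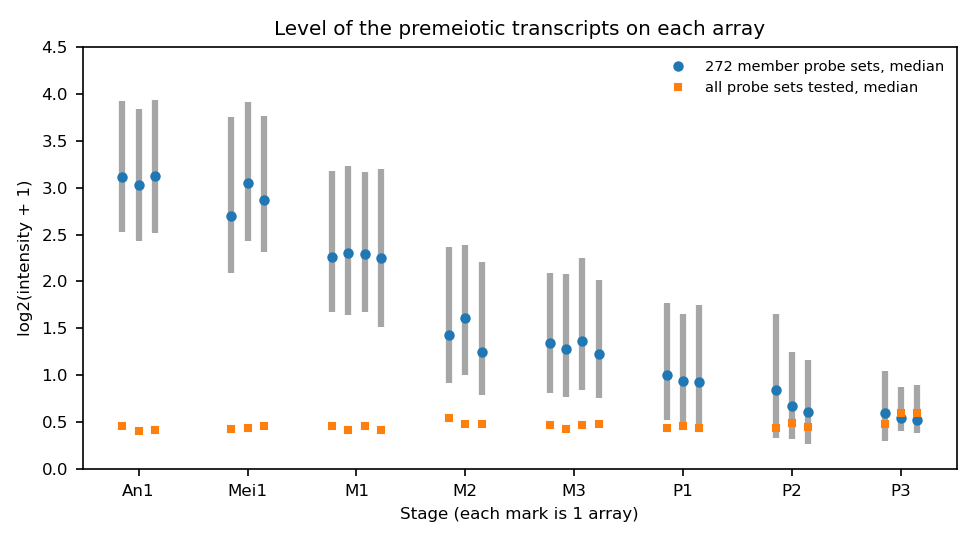
Median level of the 272 members (circles, with bars from the first to the third quartile) and median of all 47799 probe sets tested (squares) on each of the 26 arrays, in log2(intensity + 1), by stage. The member medians run from 3.03 to 3.13 in An1, from 2.25 to 2.31 in M1 and from 0.52 to 0.59 in P3, and Mei1 replicate 1 (2.70) is the lowest premeiotic array.

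Replicates correlated at 0.93 or more within each stage but P3, whose replicate 1 stood apart with a lowest correlation of 0.849; counts with it and M2 replicate 2 left out are given with the processing alternatives. Summed over 11 tapetum markers, the intensity was 16.5 to 20.2 in An1, 25.3 to 33.4 in Mei1, 42.3 to 92.8 in M1, 181 to 251 in M2, 372 to 442 in M3, 386 to 515 in P1, 167 to 258 in P2 and 16.0 to 63.3 in P3. It thus went up while the members went down as far as M3, and it was low again in P3, where the member median was lowest. The single markers differed. On the An1 and Mei1 arrays the tapetal gene C6 was near 0 (0.103 to 0.190), while TDR read 2.21 to 3.9 and EAT1 0.607 to 8.67. EAT1 did not follow the sum at the next step, with 4.84 to 11.6 in M1 and 1.6 to 5.45 in M2. Of the 11 markers, 4 were called higher and 1 lower from M1 to M2 in the limma fit described below. The sum over 4 pollen markers stayed at or under 3.59 through P1 and reached 66.2 to 112 in P2 and 71.6 to 326 in P3. In whole anthers, fewer cells of a type and less RNA per cell cannot be told apart, and the part of tapetum and pollen RNA in the members' decline was not tested. None of the 11 tapetum or 4 pollen markers was a member, but with 1.11% of all genes being members, lists this small can hold none.

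The gene list with most members was that of DNA replication. Of 30 genes of the replication list measured, 10 were members (33.3%), against 198 of 17905 genes overall (1.11%). Since both the rule and the list were chosen with results known, these shares describe the group. All 6 subunits of the MCM2 to MCM7 helicase were members, with An1 and Mei1 lying 1.27 to 1.90 above M2 on the log2 scale. The clamp PCNA was 2.12 above M2. RPA gave 2 members of 7, RPA70b and RPA32A (1.75 and 1.59 above M2), while RPA14, RPA32B, RPA32C, RPA70a and RPA70c lay 0.35 to 0.85 above M2 and did not meet the rule. Replication factor C, which loads the clamp, gave 1 member of 5 (RFC4, 1.24). By contrast, none of the 5 genes of the origin recognition complex was a member (0.06 to 0.74 above M2), nor were MCM8 and MCM9 (0.10 and 0.37). The catalytic subunit gene polD1 of DNA polymerase delta fell just outside, at a margin of 0.990.

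**Figure D2:**
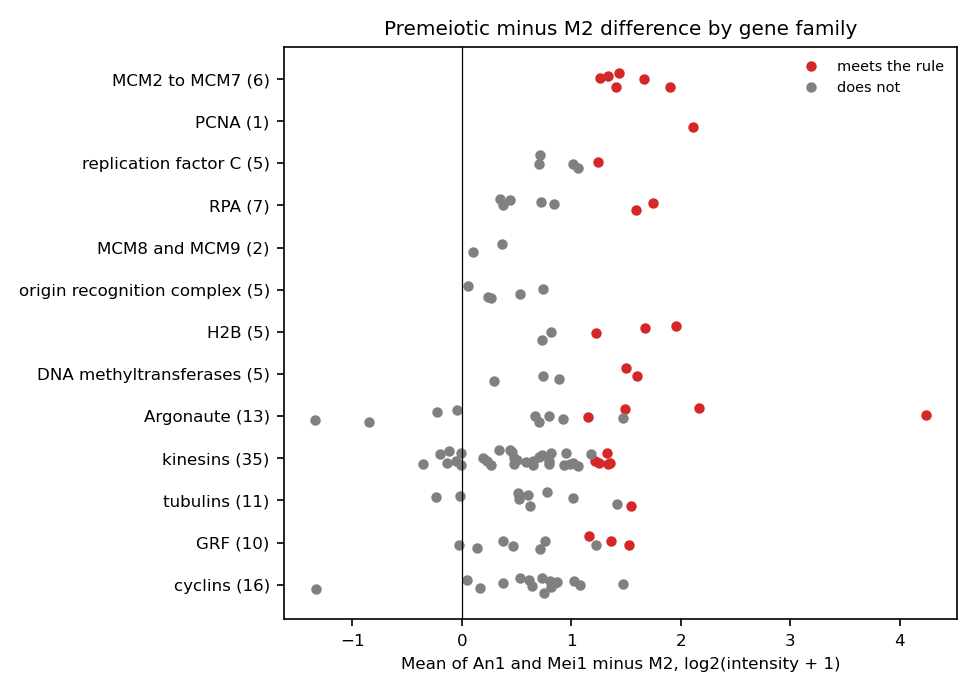
Mean of the An1 and Mei1 levels minus the M2 level, in log2(intensity + 1), for each gene of 13 families (number of genes in brackets; the probe set with the highest mean per gene). Red points meet the rule and grey points do not: all 6 MCM2 to MCM7 genes are red, no gene of the origin recognition complex or of the cyclins is, and MEL1 lies farthest right at 4.24.

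MCM3, a subunit of the helicase, had the widest margin of the group (1.85). Its intensity was 9.54, 8.49 and 9.75 on the An1 arrays and 5.53, 11.5 and 9.61 on those of Mei1. It was 4.38 to 5.56 over the 4 M1 arrays, 1.41, 2.46 and 1.21 in M2, and 1.20 to 1.36 in M3. No M1 array overlapped An1 or M2, while 1 Mei1 array (5.53) fell within the range of M1. PCNA read 16.1, 12.1 and 15.1 in An1, 5.68, 17.0 and 12.5 in Mei1, 4.70 to 7.51 in M1 and 1.65, 3.68 and 1.39 in M2. Its P1 arrays read 2.93, 2.84 and 4.27, each above 2 of the 3 in M2, and P3 read 1.67, 0.479 and 0.637.

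RPA70b, a large RPA subunit, read 5.52 ± 2.46 in Mei1 (SD, n = 3) and 4.04 ± 0.799 in M1 (SD, n = 4). Its Mei1 and M1 arrays overlapped, and its M1 arrays (3.33 to 5.17) all lay above those of M2 (0.841 to 1.13).

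Other genes of dividing cells followed. Of 8 core histone genes, 3 were members (37.5%), all among the 5 of the H2B class: H2B.7, H2B.10 and H2B.6. These probe sets may cross-read the near-identical copies of the family, so the single gene is uncertain. H2B.7 read 31.9, 36.4 and 36.9 in An1, 16.3, 36.1 and 29.1 in Mei1, 19.0 to 29.0 in M1 and 8.22, 8.65 and 9.36 in M2. The Mei1 and M1 arrays overlapped, and every M1 array lay above every M2 array. The centromeric histone gene CenH3 was a member as well (7.72 ± 0.200 in An1 and 2.31 ± 0.516 in M2, SD, n = 3), as was RBR1, the retinoblastoma homologue that restrains S-phase entry (2.60 ± 0.167 and 0.469 ± 0.122, SD, n = 3). Among cell cycle genes CDKB2;1, a mitotic kinase of plants, and KRP5, an inhibitor of such kinases, met the rule, but none of 16 cyclins did. A CYCB2 gene and CYCD3-2 came nearest, at margins of 0.97 and 0.87.

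Of the 46 genes of kinesins and tubulins, 6 were members (13.0%). They were the kinesins KIN5C, KIN10C, KIN12C, KIN14N and STD1 and the beta-tubulin TUB2. STD1, a kinesin of the phragmoplast, read 7.25, 6.04 and 6.99 in An1, 4.48, 5.06 and 4.75 in Mei1, 2.03 to 2.84 in M1 and 2.09, 1.74 and 1.25 in M2. Its M1 arrays all lay below those of Mei1, and the M1 and M2 arrays overlapped. The maintenance DNA methyltransferase MET1b and the chromomethylase CMT3a were the only members among 5 DNA methyltransferases. CMT3a read 5.82, 5.13 and 5.88 in An1, 2.25, 5.97 and 4.45 in Mei1, 1.94 to 2.89 in M1 and 0.715 to 1.15 in M2. DRM2, DRM3 and MET1-1 lay 0.74, 0.88 and 0.29 above M2 before meiosis and were not members.

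The small RNA pathway had 5 members among 18 genes (27.8%): the Argonautes MEL1, AGO1d, AGO1b and PNH1 and the RNA-dependent polymerase RDR4. Of the 13 Argonautes measured 4 were members, AGO4B fell just outside (margin 0.95), and AGO3 and AGO18 were higher in M2 than before meiosis by 1.34 and 0.85 on the log2 scale. MEL1 (LOC4334449) had the widest margin of the 272. It read 45.8, 48.1 and 43.3 in An1, 40.0, 42.8 and 37.7 in Mei1, 23.5, 16.8, 13.8 and 9.83 in M1, 1.04, 2.09 and 0.975 in M2, and 0.393 to 0.550 in P3. No arrays overlapped between Mei1, M1 and M2. AGO1d was the brightest of these genes, with 102, 102 and 93.0 in An1 and 74.7, 105 and 91.0 in Mei1. In M2 it still read 18.0, 23.3 and 19.4 and in P1 27.8, 24.6 and 23.6. SGS3 and the double-stranded RNA binding protein gene DRB1, which act in the making of small RNAs, met the rule too and were named after their values were seen. In M2 they kept intensities of 6.60 ± 1.84 and 5.48 ± 0.861 (SD, n = 3).

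None of the 12 meiosis genes measured was a member. With 1.11% of all genes being members, a list of 12 can hold none, so nothing is read from this. Of the 12, 8 were highest in An1 or Mei1. PAIR2, which is needed for homologue pairing, read 5.76 to 7.13 in An1, 8.73 to 9.63 in Mei1, 6.52 to 7.20 in M1 and 3.94 to 6.80 in M2, so its M2 range overlapped those of M1 and An1.

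Receptor kinases that set cell or organ number in the flower formed the next group. MSP1 read 29.5, 28.9 and 29.2 in An1, 23.0, 24.7 and 21.8 in Mei1, 9.47 to 11.6 in M1 and 4.53, 5.57 and 3.57 in M2. FON1, the rice counterpart of CLAVATA1 that restricts the floral meristem, read 7.50, 7.38 and 8.07 in An1, 7.68, 7.72 and 6.91 in Mei1, 2.18 to 3.17 in M1 and 1.53, 1.83 and 1.09 in M2. For both, no M1 array reached a Mei1 or an M2 array. The other genes of this list of 9 did not meet the rule. Among them were TDL1A, the ligand of MSP1, and the steroid receptor BRI1, which lay 0.83 and 1.13 above M2 before meiosis. Growth-regulating factors, which promote cell proliferation in organs, gave 3 members of 10 (GRF1, GRF4 and GRF10), and the homeodomain gene Roc3 and the TCP gene PCF2 were the others among 112 regulators of meristem and floral organs. No gene of the auxin list (49 genes), the cytosolic ribosomal proteins (24) or photosynthesis (9) was a member. With 1.11% of all genes being members, lists of this size can hold none, so nothing is read from this. Highest in An1 or Mei1 were 11 auxin, 18 ribosomal and 0 photosynthesis genes, against 4555 of all 17905 genes. PID, a kinase of auxin transport outside the list, was a member.

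**Figure D3:**
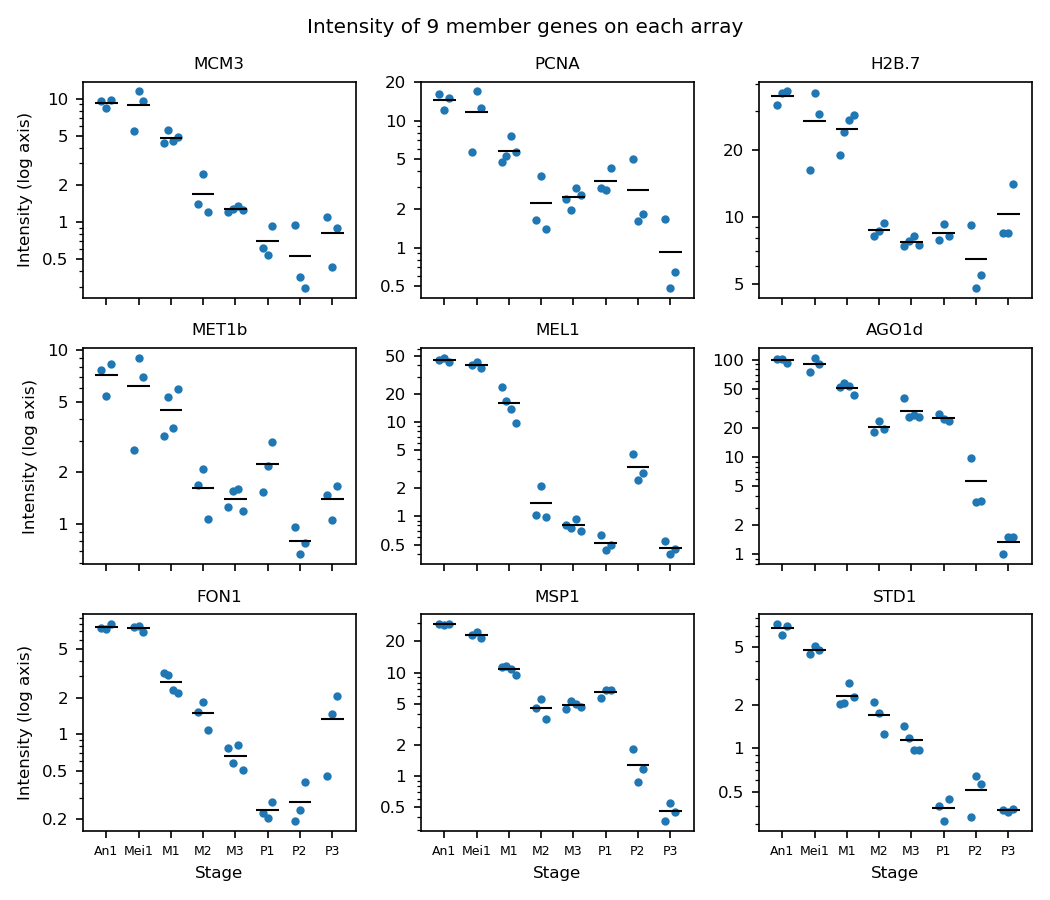
Intensity of 9 member genes on each of the 26 arrays (points; log axis) with the mean of each stage (bars). MCM3, PCNA and MET1b spread widely in Mei1 while MEL1, FON1 and MSP1 do not. AGO1d reads 18.0 or more on every array up to P1 and 9.89 or less after it, and MEL1 reads 2.43 to 4.58 in P2, above P1 and P3.

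Members without a symbol made up 142 of the 198 genes, and the 4 with the widest margins were LOC4352889, LOC4352624, LOC4336042 and LOC4348511. LOC4352889 read 15.8, 14.7 and 16.7 in An1, 10.2, 15.6 and 13.6 in Mei1, 7.47, 5.72, 5.09 and 3.12 in M1 and 0.885, 1.17 and 0.741 in M2. LOC4352624 was brighter in Mei1 (72.0, 83.1 and 77.2) than in An1 (51.8, 69.6 and 68.4) and kept 4.94 to 16.4 in M3 before reading 0.172 to 0.309 in P1. No role is given here for these genes.

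An1 and Mei1 were set side by side in a limma fit over all 47799 probe sets that passed the filter, all 272 members included, with a call at an adjusted p under 0.05 (Benjamini-Hochberg) and a log2 difference of at least 1. Both stage means were in the rule, which asks for a high level in each and so disfavours members that differ widely between them; the counts are a description, and nothing is read from the lack of calls. None was called in either direction, against 0.0209% of all tested called higher and 0% called lower. At an unadjusted p under 0.05, 56 members were lower in Mei1 and 0 higher. The share of all tested at that limit is not given here, so nothing is read from these counts. At an adjusted p under 0.05 and any size, 1 member was lower (a probe set without a gene, at -0.61), against 0.0167% of all tested. By the same limit 0 were higher, against 0.0293%. By the mean, 235 of the 272 (86.4%) were lower in Mei1, against 44.4% of all tested, with a median difference of -0.19 against 0.01.

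One array moved this shift. Mei1 replicate 1 was the lowest of the 3 Mei1 arrays for 158 members (58.1%; 41.5% of all tested), and for all 10 replication members, the 3 H2B members, both DNA methyltransferases and all 6 members among kinesins and tubulins. The 10 replication members lay 0.26 to 1.23 below the mean of the other Mei1 arrays, with a median of 0.79 below (-0.79). MET1b read 2.65 on it against 9.0 and 6.99, and MCM2 5.34 against 12.3 and 8.79. MEL1, FON1 and MSP1, picked by hand and not 1 of the gene lists, did not share this. None was lowest there, and their differences from the other 2 arrays lay between -0.01 and 0.06. The 6 small RNA probe sets as a list were mixed, from -0.38 (AGO1d, lowest there) to 0.47, with 3 of the 6 highest there. Without Mei1 replicate 1, 5 of the 10 replication members were lower in Mei1 than in An1 and their median difference moved from -0.23 to 0.00; over all members 208 (76.5%) were lower, with a median of -0.12. M2 replicate 3 was likewise the lowest M2 array for all 10 replication members and for 194 of the 272 (71.3%; 49.3% of all tested). All 10 were highest of their stage on M2 replicate 2, P1 replicate 3 and P2 replicate 1. Over the 272, M2 replicate 2 was highest for 173 (63.6%; 32.6% of all tested) and P2 replicate 1 for 162 (59.6%; 29.4%). P1 replicate 3 was highest for 99 of the 272 (36.4%), against 16725 of 47799 tested. Of the 6 members among kinesins and tubulins, 1 was highest on P2 replicate 1. Mei1 replicate 1 had the lowest sum of tapetum markers in Mei1 (25.3, against 28.9 and 33.4) and M2 replicate 3 the highest in M2 (251, against 181 and 237); their part in these differences was not tested. The comparison without Mei1 replicate 1 was chosen after seeing the data.

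**Figure D4:**
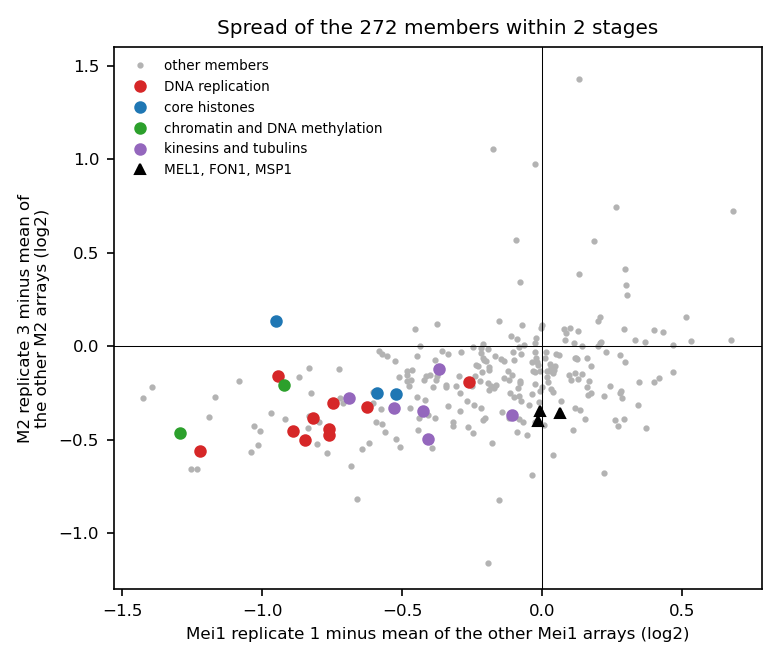
Each of the 272 members placed by how far Mei1 replicate 1 (horizontal) and M2 replicate 3 (vertical) lay from the mean of the other 2 arrays of their stage, in log2(intensity + 1). The replication genes (red) lie 0.26 to 1.23 to the left of 0 while MEL1, FON1 and MSP1 (triangles, picked by hand) lie between -0.01 and 0.06 horizontally. Vertically, the replication genes lie 0.16 to 0.56 below 0 and the triangles 0.34 to 0.40 below 0.

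Leptotene was the stage the rule did not use. The position of M1 between the M2 level (0) and the mean of An1 and Mei1 (1) had a median of 0.55 over the members, with quartiles of 0.43 and 0.63. Measured from the mean of An1 and Mei1, about as much of the decline up to M2 thus preceded M1 as followed it. Measured from Mei1 alone, the step after M1 was the larger. The median difference was -0.59 from Mei1 to M1 and -0.76 from M1 to M2, against -0.03 and 0.05 for all tested. The member median went down further after M2, from 1.43 to 0.59 in P3. On the 4 M1 arrays the median was 0.56, 0.56, 0.52 and 0.46. The lowest, M1 replicate 4, was the lowest M1 array for 138 members (50.7%, against 30.8% of all tested). It also had the highest sum of tapetum markers (92.8, against 42.3 to 62.8 on the others). Among these markers, C4 was highest there (27.9, against 0.241 to 7.99) and EAT1 lowest (4.84, against 9.98 to 11.6). The part of tapetum RNA in the position was not tested.

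The position varied among the groups. H2B probe sets lay nearest the premeiotic level (median position 0.83 over 3 probe sets). The 10 replication members lay near the middle (0.54, from 0.45 to 0.76). Kinesins and tubulins were lower (0.40 over 6), the small RNA probe sets at 0.63 over 6, FON1 at 0.32 and MSP1 at 0.48. Over named genes the extremes were PID (0.94), H2B.6, H2B.7 and AGO1b (0.81) at the upper end and STD1 (0.22), the kinase gene MKB3 (0.29) and the expansin EXPA5 (0.29) at the lower. Since An1, Mei1 and M2 were in the rule, these positions carry no test.

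**Figure D5:**
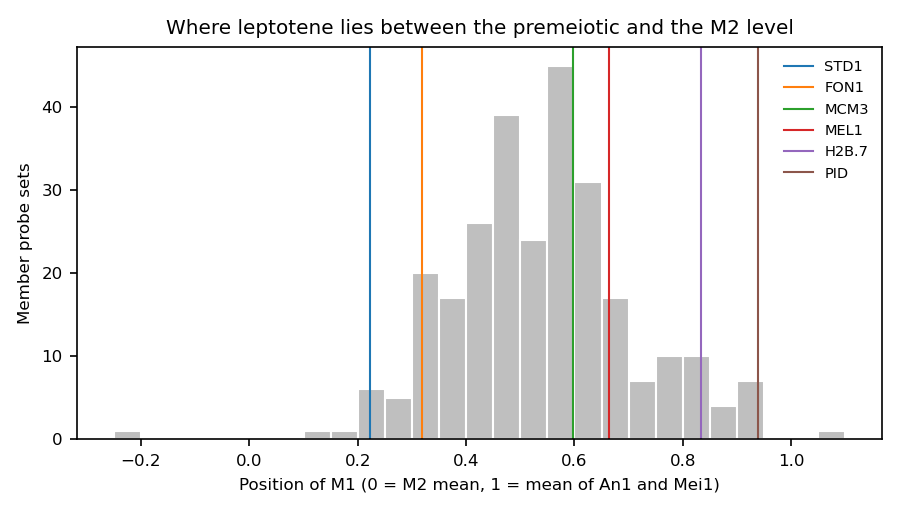
Number of member probe sets by the position of M1 between the M2 mean (0) and the mean of An1 and Mei1 (1), with 6 named genes as lines. The median is 0.55, STD1 (0.22) and FON1 (0.32) lie low, and H2B.7 (0.83) and PID (0.94) lie high.

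From Mei1 to M1, 22 members were called lower in the limma fit, against 0.0523% of all probe sets tested, and from M1 to M2 65 were, against 0.268%. None was called higher at either step, against 1.09% and 0.58%, and none was higher at an unadjusted p under 0.05. Mei1 and M2 were in the rule, so nothing is read from these counts, and without Mei1 replicate 1 the first was 34. Of the 22, 7 were called at both steps and 15 at the first alone, while 58 were called at the second alone and 192 at neither. As a description with no test, the log2 difference from Mei1 to M1 was -1.34 for MEL1, -1.20 for FON1, -1.08 for TGAL4, a bZIP factor, and -1.03 for MSP1. Without M1 replicate 4 it was -0.97 for both MSP1 and TGAL4. From M1 to M2 it was -2.81 for MEL1, -1.40 for H2B.7, -1.33 for RPA70b, -1.31 for AGO1d and -1.12 for PCNA.

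After M2 some members fell further, over stages whose means were all in the rule, so the counts are a description. From M2 to P3 97 of the 272 fell (35.7%), against 5.08% of all tested, and 0 rose, against 6.29%. Here and below, fell and rose stand for a call in the limma fit, with its size limit of 1. At an adjusted p under 0.05 and any size, 198 members were lower, against 18.1% of all tested. At an unadjusted p under 0.05, 0 were higher. The rule held each later stage under a ceiling, which limited how far a member could rise. It kept late risers out of the members but not out of the other probe sets. Nothing is therefore read from the lack of rises or from the higher share of falls. Adjusted p-values given below for single members describe the step. The members start higher than most probe sets, so those at or above 1 in M2 were set apart: 97 of 186 such members fell (52.2%), against 2333 of 14154 others (16.5%). Their median difference was -1.04, against -0.22 for the others. Step by step, among members and others at or above 1 at the start of each, 1.61% of members against 3.27% of others fell from M2 to M3, 8.0% against 2.13% from M3 to P1, 16.0% against 7.4% from P1 to P2 and 14.9% against 13.5% from P2 to P3. The share was thus lower among members at the first of these steps and close to that of the others at the last. Of the 97, 54 fell at no single step among M2, M3, P1, P2 and P3. The same count is not given for other probe sets, so nothing is read from it.

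Genes of the small RNA and receptor groups were among those that fell. AGO1d read 9.89, 3.49 and 3.52 in P2 and 1.00, 1.5 and 1.51 in P3. It fell by 2.12 on the log2 scale from P1 to P2 (limma, adjusted p = 6.03e-07), and all P2 arrays lay under all P1 arrays. MSP1 read 5.68, 6.77 and 6.82 in P1 and 1.83, 0.873 and 1.18 in P2, a fall of 1.71 (adjusted p = 3.94e-09). PNH1, an Argonaute of the PINHEAD type, fell by 1.23 at the same step (adjusted p = 8.93e-07), from 2.95 ± 0.858 to 0.673 ± 0.270 (SD, n = 3). From P1 to P2 21 members fell (2.24% of all tested fell) and 1 rose (3.23%). KRP5, TUB2 and EXPA5 were among the 21 with falls of 1.09, 1.08 and 1.24, and each lost its call without 1 of the P1 or P2 arrays (EXPA5 to an adjusted p of 0.173).

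The single rise was that of MEL1. It read 0.638, 0.443 and 0.490 in P1, 4.58, 2.43 and 2.89 in P2 and 0.550, 0.393 and 0.447 in P3. It rose by 1.47 from P1 to P2 (limma, adjusted p = 1.64e-05) and fell by 1.53 from P2 to P3 (adjusted p = 8.95e-06). With a pseudocount of 4 these differences were 0.68 and -0.70 and neither was called. Without P1 replicate 3, 2 members rose. The P2 arrays of MEL1 lay above those of P1 and P3 and still under the lowest M1 array, 9.83.

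The other steps held fewer changes. From M2 to M3 3 members fell (0.975% of all tested) and 0 rose (1.06%, with 12 members higher at an unadjusted p under 0.05). Without M2 replicate 1, or without M3 replicate 1, 1 member fell. LOC4343779 fell the most (-1.73). HSP26.2, a small heat shock protein gene, was the only one of them with a symbol (-1.01, adjusted p = 0.0231), and without M2 replicate 2, where it read 20.5 against 11.0 and 8.12, the difference was -0.66 (adjusted p = 0.158). From M3 to P1 14 fell (0.661% of all tested) and 0 rose (0.59%, with 3 members higher at an unadjusted p under 0.05). LOC4352624 fell by 2.71 (adjusted p = 4.52e-06) and HSP26.2 by 1.65 (adjusted p = 0.000862). From P2 to P3 14 fell (4.07% of all tested) and 0 rose (4.22%, with 14 members higher at an unadjusted p under 0.05). They included SGS3 (-1.47), the CBL-interacting kinase gene CIPK6 (-1.45) and AGO1d (-1.38, but -0.95 without P2 replicate 1). P3 replicate 1 mattered for this step: without it 23 members fell and 2 rose. For the counts at an unadjusted p, the share of all tested is not given here, and nothing is read from them.

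Of the 10 replication members, MCM2 alone was called lower from M2 to P3 (-1.11, limma, adjusted p = 0.00142), and without M2 replicate 2 its difference was -0.87. The median of the 10 was already 1.13, 1.59 and 0.99 on the M2 arrays, which left little room for a fall of 1. In P3 it was 0.80, 0.57 and 0.78. For H2B.7 and H2B.10 the differences were 0.18 and 0.15 (limma, adjusted p = 0.526 and 0.636). H2B.6 fell by 1.04 (adjusted p = 0.000269), but its difference was -0.98 without M2 replicate 2 and -0.86 without P3 replicate 2. Over all members the highest of the 5 later stages was M2 for 163, M3 for 49, P1 for 30, P3 for 18 and P2 for 12.

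Other probe sets of the same genes gave a further reading on the same arrays. For 23 of the 198 genes there were 31 probe sets outside the rule, of which 22 (71.0%) were highest in An1 or Mei1, against 15.4% of all probe sets. Their median level before meiosis was 0.98, against 2.96 for the members, and 16 of the 31 lay under 1 there, where a margin of 1 cannot be reached. The second probe sets of DRB1 and SGS3 just missed the rule at margins of 0.99 and 0.98. Of the 31, 11 had no positive margin, and a second probe set of LOC4337660 read 0.124 in An1 and 165 in P3 by the mean (margin -6.84). Second probe sets of LOC4334408 and LOC4337457 also had higher means in P3 (6.72 and 5.88) than in An1 (4.14 and 3.24).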

How the data were processed

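The deposited files hold 1 intensity per probe set and array, a linear value that is 1 at the 75th percentile of each array. GCOS 1.3 is named for these intensities per the submitters' processing notes, without its role, and the steps of background correction and scaling are not given in the sources used here. All 26 columns were used. Of 57381 probe sets, 187 controls were left out. From the deposited intensity, log2(intensity + 1) was taken, so a log2 difference understates changes of dim transcripts. The filter on low intensities was the 40th percentile of the log2 values (0.30), to be exceeded by the mean of any 1 stage; it kept 47799 probe sets (83.6%), the 272 members included.

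One limma fit over the 8 stages and all arrays (limma 3.58.1, R 4.3.3; lmFit and eBayes with an intensity trend) gave the differences between successive stages and from M2 to P3, with Benjamini-Hochberg adjustment over all probe sets tested. It was tested on simulated data first. A call needed an adjusted p under 0.05 and a log2 difference of at least 1. Tables came from pandas 2.3.3 and numpy 2.4.6 under Python 3.11.15, and plots from matplotlib 3.10.9.

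The members, gene lists and tests were chosen with earlier results of these data known. Genes were named through the platform annotation, with symbols updated from a RefSeq gene table (assembly ASM3414082v1) that held all 198 member gene IDs; no coordinates are given, since the files name no genome build. Named genes were the 15 members with a symbol and the largest margin, up to 6 members per list, the 4 highest and 4 lowest M1 positions, the 3 largest called differences per direction after M2, the 4 widest margins without a symbol, and the 3 members and 3 other probe sets nearest the limit; other names were chosen after their values were seen. Where a gene had several probe sets, the one with the highest mean stood for it, and 50 members end in _s_at or _x_at and can bind related transcripts. A search for promoter motifs was not run.

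Same-numbered arrays of different stages did not deviate together (mean correlation 0.0043 over 85 pairs, -0.30 to 0.54, against -0.0012 over 210 pairs with different numbers), so replicate numbers were not taken to pair arrays. Alternatives were another pseudocount (4 or 0.25), filter, scaling or variance model, the replicate number as a block, leaving out probe sets that can bind related transcripts, and leaving out arrays.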

Additional observations from a re-analysis of the deposited data

Results flagged for a closer look

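In stages with 4 arrays, 116 groups of a named gene and a stage were examined for a single array far from the others, and 3 stood out; chance alone flags about 1 in 20 such groups. AGO1d read 40.7 on M3 replicate 1, against 25.8 to 27.0 on the other M3 arrays. A probe set of GRF10 read 3.64 on M1 replicate 4, against 4.09 to 4.17 on the other M1 arrays. EXPA5 read 28.6 on M1 replicate 3, against 17.4 to 18.9 on the other M1 arrays.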

How the results depend on the processing

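The pseudocount moved the counts most. At 4, 68 probe sets met the rule, all among the 272, with 5 members called lower from Mei1 to M1, 20 from M1 to M2, 1 from M2 to M3, 1 from M3 to P1, 3 from P1 to P2 (0 higher), 2 from P2 to P3 and 28 from M2 to P3, and a median M1 position of 0.483; the P1 to P2 falls of MSP1 (-0.98) and PNH1 (-0.57) and the P2 to P3 fall of AGO1d (-0.79) came to lie under the size limit. At 0.25, 601 met it, the 272 included, with 49, 146, 5, 28, 51, 38 and 160 called lower at the same steps, 2 called higher from P1 to P2 and 4 from P2 to P3. With array weights 2 were called higher from P1 to P2 and 1 from P2 to P3. Without M2 replicate 2 and P3 replicate 1 together, 277 met the rule (256 shared), and 23 were called lower and 2 higher from P2 to P3. Quantile normalization gave 323 members (271 shared) and median-centred arrays 302 (270 shared).

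The replicate block left 1 member called lower from M2 to M3 in place of 3; of the named genes MSP1 (Mei1 to M1) and HSP26.2 (M2 to M3) came to lie just under the size limit, and PCNA (M1 to M2) was no longer called.

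With each of the 26 arrays left out in turn, the number of members ran from 230 (without Mei1 replicate 2) to 299 (without Mei1 replicate 1). Members called lower ran from 16 (without M1 replicate 4) to 34 (without Mei1 replicate 1) from Mei1 to M1, 50 to 80 from M1 to M2, 1 to 3 from M2 to M3, 10 to 17 from M3 to P1, 18 to 25 from P1 to P2, 10 (without P2 replicate 1) to 23 (without P3 replicate 1) from P2 to P3, and 84 to 102 from M2 to P3. Members called higher ran from 1 to 2 from P1 to P2 and from 0 to 2 from P2 to P3, and none was called between An1 and Mei1. The median M1 position ran from 0.51 to 0.56. The cause of these shifts was not tested. Where members lie near the background, as many do in pollen stages, the scale compresses differences, and whole anthers do not resolve cell types.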

Other observations

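A few members split the arrays of a single stage. In M3, replicates 1 and 2 both lay at least 1 on the log2 scale below replicates 3 and 4 for 5 members (1.84%), against 125 of all probe sets tested (0.262%). In M2, replicate 2 lay at least 1 below both other arrays for 7 members (2.57%), against 410 of all tested (0.858%). Both held for 4 members, against 83 of all probe sets tested. The latter include many dim probe sets, whose level is too low to show such a gap. Nothing is therefore read from the higher shares among members. TPP7, a trehalose-6-phosphate phosphatase gene, read 4.51, 1.29 and 4.96 in M2 and 0.794, 0.489, 7.23 and 8.0 in M3. LOC4335798 read 42.7, 3.34 and 36.1 in M2 and 3.02, 1.16, 22.2 and 18.4 in M3. LOC4332215 read 41.7, 6.27 and 33.6 in M2 and 5.53, 3.83, 21.1 and 30.1 in M3. These members were picked for the split, and its source was not tested.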
